A study of Mus musculus with 4 samples.

Results

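The imprinted growth network is a group of genes that are expressed mainly from the maternal or the paternal chromosome and that act on growth before and after birth. The 9 members examined here were H19, Meg3, Dlk1, Mest, Peg3, Plagl1, Ndn, Cdkn1c and Grb10, taken by symbol from the 24063 gene symbols of the tables, with each gene read from whichever of its transcripts collected the most counts. RNA had been sequenced from endothelial cells (ECs) that anti-CD31 magnetic beads pulled from the lungs of C57BL6 mice 8 weeks of age. The 2 libraries of the PNX group came from mice whose left lung had been removed (unilateral pneumonectomy, PNX) 7 days earlier, and the 2 sham libraries from mice that underwent thoracotomy without PNX. Each library was a pool of the cells of 2 mice, and neither group carried a transgene or received another agent in the labels. PNX makes the remaining lung grow, and the comparison of the groups asks which RNAs differed in the EC fraction during that growth.

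Imprinting is set by DNA methylation that the egg or the sperm leaves on a control region, so that only the maternal or only the paternal copy of a nearby gene is read. Many imprinted genes are high in fetal tissues, decline after birth as growth slows, and are known to move together, for which the term imprinted gene network was coined. Some members promote growth and others restrain it, and both kinds are silenced in many adult organs.

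The counts on 1 transcript per gene summed to between 41367438 and 50952879 per library, so that 3 counts, the smallest level taken as detected, stood for between 0.0589 and 0.0725 CPM, the count per library total scaled to a common size (counting error only). Libraries of the same group differed by a mean chi-square per gene of 1.76 in sham and 1.52 in PNX, above the value of about unity that counting noise alone gives, and by 134 and 120 between groups. The labels describe the mice as male, yet each of 44 genes of chromosome Y was at 0 in every library and Xist, the RNA of the inactive X chromosome, had between 31872 and 33792 normalized counts. Since the 4 libraries were alike in this, no result could be given without the libraries that go against their label. Counts below were normalized by the trimmed mean of M values (TMM) and scaled to the mean library size. With 2 libraries per group, p-values measure the spread between pools of cells.

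In post-PNX ECs 4 of the 9 members were higher by more than 2-fold with a Benjamini-Hochberg adjusted p below 0.01 (quasi-likelihood test in edgeR, 16208 genes; SE below is the standard error of the log2 change), namely Dlk1, Meg3, H19 and Mest, and 0 were lower. Of all genes tested 5.9% were higher and 1.66% lower by the same rule, 7.56% together. Grb10, Ndn and Peg3 rose by less than 2-fold at an adjusted p under 0.01, which 29.3% of all genes met in the higher and 27.8% in the lower direction, while Cdkn1c and Plagl1 did not pass it. Both PNX libraries lay above both sham libraries in 8 of the 9 members, an order seen in 40.8% of all genes tested, with the opposite order in 40.5%. All 9 members passed the filter on low counts, but Dlk1 did so only through the PNX libraries. It therefore had to differ to be tested, and 3 of the 8 others were higher by the 2-fold rule.

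**Figure D1:**
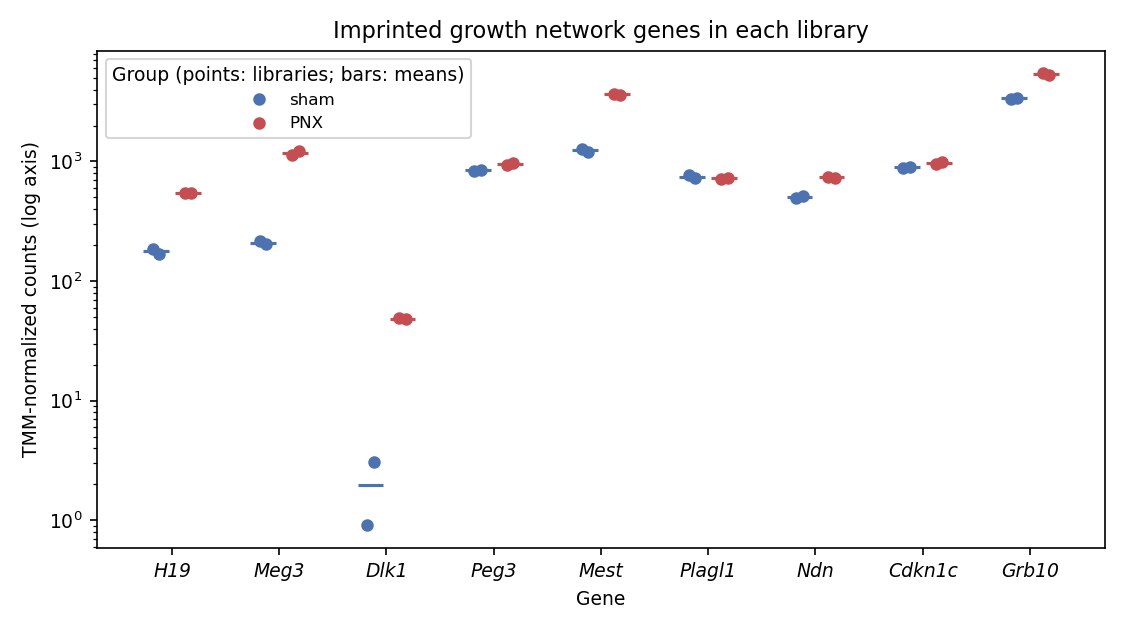
TMM-normalized counts (log axis) of the 9 network genes in the sham (blue) and PNX (red) libraries, with bars at the group means of 2 libraries. The groups stand clearly apart for H19, Meg3, Dlk1 and Mest, and the libraries of both groups overlap for Plagl1, at 719 to 767 normalized counts.

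The long noncoding RNA H19 lies on chromosome 7 from 142575530 to 142578146 (mm10), is read from the maternal chromosome and shares its control region with the growth factor gene Igf2. H19 had 186 and 169 normalized counts in sham and 547 and 546 in post-PNX ECs. Both post-PNX pools were thus about the same and well above the sham pools. In sham the mean was 177 ± 11.7 (SD, n = 2), and after PNX it reached 547 ± 0.966 (SD, n = 2), a log2 change of 1.62 (SE 0.088, edgeR adjusted p 9.5e-25). Its neighbour Igf2, the fetal growth ligand read from the paternal chromosome, had 453 and 455 normalized counts in sham and 650 and 642 after PNX, a log2 change of 0.51 (SE 0.067, edgeR adjusted p 1.3e-09). Within a library, the number of H19 counts per Igf2 count was 0.410 and 0.372 in sham and 0.843 and 0.851 after PNX, a ratio that does not depend on how libraries are scaled. This ratio and the others below were formed after the values had been seen.

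H19 is also the precursor of miR-675, whose hairpin lies inside the gene from 142577064 to 142577147. The mature sequences of the RNAs that lie inside the members called higher are shown because a host transcript can be a source of its small RNA (RefSeq, GRCm38.p6; the seed, bases 2 to 8 from the 5′ end, is in capitals):
mmu-miR-675-5p in H19: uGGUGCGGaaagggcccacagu
mmu-miR-675-3p in H19: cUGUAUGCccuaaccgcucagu
mmu-miR-335-5p in Mest: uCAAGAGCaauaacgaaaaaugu
mmu-miR-335-3p in Mest: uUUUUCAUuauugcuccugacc
mmu-miR-770-5p in Meg3: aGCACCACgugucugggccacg
mmu-miR-770-3p in Meg3: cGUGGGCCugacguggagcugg
A further RNA annotated inside Meg3, miR-1906, is not printed and is described at the end. None of the 6 seeds printed was shared between arms. The libraries were made from polyadenylated RNA, so the tables do not measure mature miRNAs. The stretch of H19 that holds the miR-675 hairpin had 18 and 22 counts in sham and 58 and 59 after PNX, reads that belong to the host transcript. The hairpin of miR-335, inside Mest, had 0 and 1 counts in sham and 1 and 0 after PNX.

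The Dlk1-Dio3 domain of chromosome 12 held the largest changes. Its maternally read noncoding RNAs, Meg3, Rian and Mirg, lie in a row and carry small nucleolar RNAs and microRNAs, and its paternally read genes include Dlk1, Rtl1 and Dio3. Meg3, from 109540996 to 109571729, had 215 and 203 normalized counts in sham and 1129 and 1229 after PNX. The PNX libraries were more than 5 times the sham libraries. The sham mean of 209 ± 8.38 (SD, n = 2) compared with 1179 ± 70.7 (SD, n = 2) after PNX, a log2 change of 2.49 (SE 0.071, edgeR adjusted p 5.3e-39). Rian had 227 and 175 normalized counts in sham and 1187 and 1192 after PNX, with a log2 change of 2.55 (edgeR adjusted p 7.8e-39). Counts of Meg3 per count of Rian were 0.944 and 1.16 in sham and 0.951 and 1.03 after PNX, so that the groups overlapped in this ratio. Mirg was rare, with 5 and 1 counts in sham and 33 and 32 after PNX. Pooled over libraries, Mirg was 11.8-fold higher, with a 95% exact binomial interval from 5.15 to 33.4 that covers counting error only.

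Dlk1, which lies from 109452485 to 109463336 on the same chromosome, encodes a membrane protein with EGF-like repeats that holds back the formation of fat cells. Dlk1 had 1 and 3 counts in sham ECs and 50 and 43 after PNX. The gene was at the limit of detection in sham and low but clearly detected in both post-PNX pools. Pooled over libraries, its CPM was 25.4-fold higher after PNX, with a 95% exact binomial interval from 9.59 to 95.1 for counting error. The fitted log2 change was 4.57 (SE 0.46, edgeR adjusted p 2.3e-13), and since it depends on 4 counts in sham it was 5.56 without sham replicate 2 and 3.93 without sham replicate 1. The other protein genes of the domain were rarer still, with 0 and 1 counts of Rtl1 in sham and 6 and 3 after PNX, and 1 and 0 counts of Dio3 in sham and 5 and 2 after PNX. Neither passed the filter on low counts. Begain, which lies outside the cluster of Dlk1 and Meg3 on its proximal side, had 323 and 365 normalized counts in sham and 333 and 355 after PNX, with a log2 change of 0.0042 (SE 0.086, edgeR adjusted p 0.97). In the annotation Rtl1 overlaps Meg3 over 6830 bases, and the sources used here do not say whether the counting used strand.

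**Figure D2:**
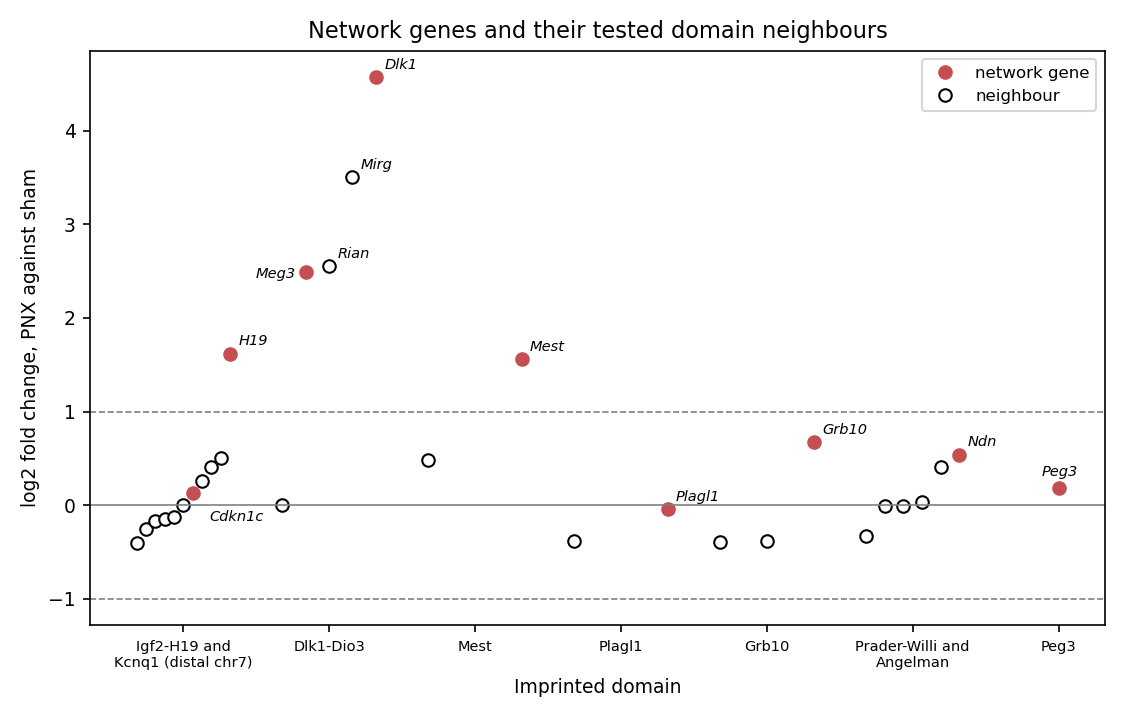
Log2 fold change between PNX and sham of the network genes (red) and of the neighbours in or beside their imprinted domains that passed the filter (open), in increasing order within a domain. Dashed lines mark 2-fold. Dlk1, Mirg, Rian and Meg3 of 1 domain stand above 2 on the log2 scale, while the neighbours in the other domains stay between -0.40 and 0.51.

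Promoters are shown for Meg3, Dlk1 and Mest, called members with an entry in the sequence table, which held none for H19 or Cdkn1c (RefSeq, GRCm38.p6, the 250 bases before a listed transcript start, written 5′ to 3′ on the strand of the gene). A gene can have several starts, so the windows of Dlk1 and Mest lie inside the span given for the gene, and that of Peg3 overlaps it. The sequence for Meg3 (chr12:109540746-109540995, plus strand) has in capitals a cAMP response element, TGACGTCA, that begins 57 bases before the start, and 2 overlapping matches to the TATA box letters TATAAA on opposite strands:
Meg3: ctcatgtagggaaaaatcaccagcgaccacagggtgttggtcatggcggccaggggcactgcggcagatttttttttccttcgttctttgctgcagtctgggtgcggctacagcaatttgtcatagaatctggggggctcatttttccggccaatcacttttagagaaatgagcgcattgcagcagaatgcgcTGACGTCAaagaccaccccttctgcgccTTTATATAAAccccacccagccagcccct
Dlk1 (chr12:109452573-109452822, plus strand) held none of the 4 motifs searched, which besides these were the GC box GGGCGG and GGGGCCCC, the site that the Plagl1 protein is known to bind:
Dlk1: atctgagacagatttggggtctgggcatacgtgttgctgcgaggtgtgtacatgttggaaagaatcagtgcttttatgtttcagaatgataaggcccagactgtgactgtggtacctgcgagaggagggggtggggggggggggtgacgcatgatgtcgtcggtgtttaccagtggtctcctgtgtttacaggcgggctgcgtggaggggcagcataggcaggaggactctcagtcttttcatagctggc
Mest (chr6:30737800-30738049, plus strand) held the GC box, in capitals:
Mest: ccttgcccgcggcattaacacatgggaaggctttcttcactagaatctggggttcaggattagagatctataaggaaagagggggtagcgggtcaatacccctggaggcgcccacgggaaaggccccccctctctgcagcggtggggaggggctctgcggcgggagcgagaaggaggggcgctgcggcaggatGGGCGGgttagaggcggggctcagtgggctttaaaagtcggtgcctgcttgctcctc
Peg3 (chr7:6730420-6730669, minus strand) is added since among the 11 member windows searched it alone held GGGGCCCC, beside a cAMP response element (both in capitals):
Peg3: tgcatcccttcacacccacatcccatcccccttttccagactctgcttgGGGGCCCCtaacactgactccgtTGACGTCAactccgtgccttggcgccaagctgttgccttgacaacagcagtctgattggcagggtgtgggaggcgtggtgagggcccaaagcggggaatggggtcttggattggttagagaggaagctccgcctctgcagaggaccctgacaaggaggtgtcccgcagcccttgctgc
On either strand, TGACGTCA was found in 1.55% of the 32851 promoter windows of this length, GGGGCCCC in 0.889%, TATAAA in 12.4% and GGGCGG in 32.7%. A CG pair, the site of DNA methylation, occurred 10 times in the Meg3 window, 8 times each in those of Dlk1 and Peg3 and 14 times in that of Mest, against a median of 6 over all windows. Windows at other starts, not printed, held 0 in Meg3 (chr12:109545148-109545397) and 7 in Mest (chr6:30733256-30733505). A match describes these letters only, and the motifs were chosen after the values had been seen.

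Mest encodes an enzyme of the hydrolase family in the endoplasmic reticulum and is read from the paternal chromosome. It lies on chromosome 6 from 30733506 to 30748466. Mest had 1279 and 1194 normalized counts in sham and 3698 and 3582 after PNX, with no overlap between the groups. The sham mean was 1236 ± 60.4 (SD, n = 2) and the post-PNX mean 3640 ± 81.7 (SD, n = 2), a log2 change of 1.56 (SE 0.037, edgeR adjusted p 3.7e-43). Copg2, a coat protein gene whose end overlaps that of Mest over 913 bases, had 2678 and 2513 normalized counts in sham and 3702 and 3542 after PNX, a log2 change of 0.48. Counts of Mest per count of Copg2 were 0.478 and 0.475 in sham and 0.999 and 1.01 after PNX.

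Plagl1 encodes a zinc finger transcription factor that can arrest the cell cycle and that is known to act on other genes of the network, H19, Igf2, Cdkn1c and Dlk1 among them. Plagl1, on chromosome 10 from 13090832 to 13131694, had 767 and 725 normalized counts in sham and 719 and 734 after PNX. The libraries of the groups overlapped. Its log2 change was -0.040 (SE 0.059, edgeR adjusted p 0.56). With libraries scaled to 12 endothelial marker genes it changed sign to 0.20 (edgeR adjusted p 0.0035). That scaling moved the median of all genes by 0.24.

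Peg3, on chromosome 7 from 6703892 to 6730462, encodes another zinc finger protein of the paternal chromosome, with roles in cell death and stress signaling. It had 838 and 844 normalized counts in sham and 935 and 970 after PNX. The log2 change of Peg3 was 0.18 (SE 0.053, edgeR adjusted p 0.0026), and DESeq2's Wald test gave an adjusted p of 0.067. The groups of Peg3 did not overlap, but the difference was small.

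Ndn encodes necdin, which binds E2F1 and p53 and restrains division, and lies in the domain whose loss from the paternal chromosome causes Prader-Willi syndrome in humans. Ndn, on chromosome 7 from 62348277 to 62349928, had 495 and 518 normalized counts in sham and 748 and 722 after PNX. It rose by a log2 change of 0.54 (SE 0.064, edgeR adjusted p 4.7e-11). Snrpn, of the same domain, had 323 and 341 normalized counts in sham and 345 and 314 after PNX, and Snurf had the same counts because both names share a transcript in the tables. Magel2, the nearest relative of Ndn in the domain, had 2 and 3 counts in sham and 0 in both PNX libraries, too few for the test.

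Cdkn1c and Grb10, further members that restrain growth, differed in their change. Cdkn1c encodes p57, an inhibitor of cyclin-dependent kinases that is read from the maternal chromosome, and lies on chromosome 7 from 143458339 to 143461059. Cdkn1c had 881 and 901 normalized counts in sham and 957 and 987 after PNX. Its log2 change of 0.12 (SE 0.052, edgeR adjusted p 0.032) missed the threshold of 0.01. Scaling to the 12 endothelial markers, which moved the median of all genes by 0.24, gave 0.36 (edgeR adjusted p 2.7e-07). Grb10 encodes an adaptor protein that dampens signals of the insulin and IGF receptors, and lies on chromosome 11 from 11930499 to 12037428. It had 3346 and 3412 normalized counts in sham and 5463 and 5316 after PNX. Grb10 rose by a log2 change of 0.67 (SE 0.028, edgeR adjusted p 1.9e-30), which is 1.60-fold.

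**Figure D3:**
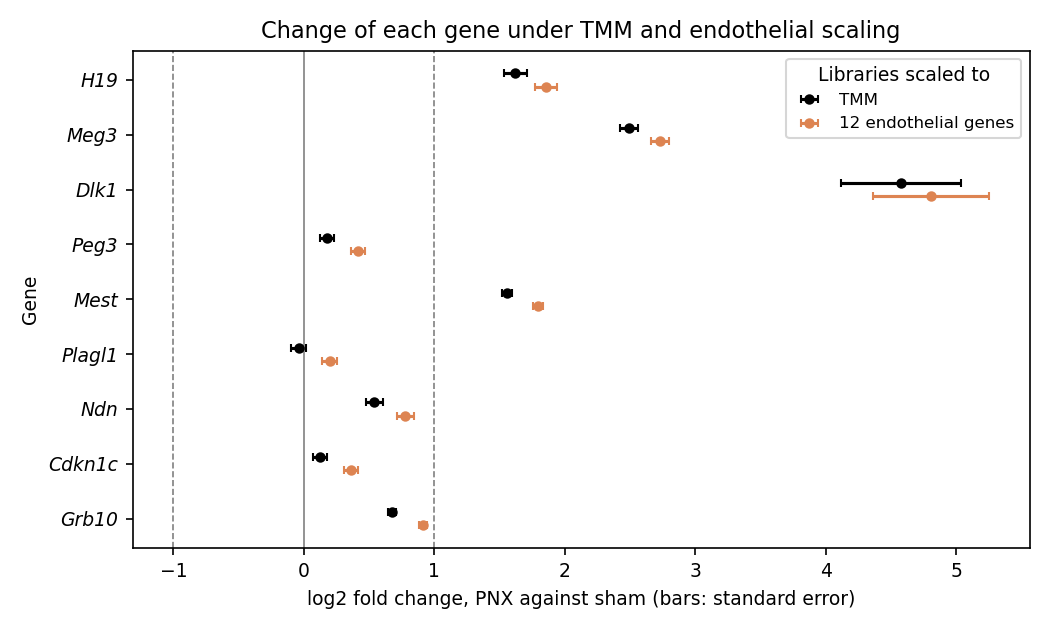
Log2 fold change of each network gene between PNX and sham with its standard error, with libraries scaled by TMM (black) or to 12 endothelial marker genes (orange). Dashed lines mark 2-fold. Dlk1, Meg3, H19 and Mest lie beyond 1 under both scalings, and Plagl1 moves from -0.040 to 0.20.

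Levels can be set side by side only per length, for which the deposited FPKM was used. In sham ECs the order from the highest level was Grb10 (9.02 ± 0.127 FPKM, SD, n = 2), Mest (6.30 ± 0.306), Cdkn1c (6.23 ± 0.0996), Ndn, Plagl1, Peg3, H19, Meg3 and Dlk1. Mest and Cdkn1c did not differ beyond their spread in sham. After PNX Mest came first with 18.7 ± 0.452 FPKM (SD, n = 2), ahead of Grb10 with 14.5 ± 0.306, and H19 rose from the seventh to the fifth place with 2.86 ± 0.0101 FPKM. Peg3 and Plagl1 followed it at 1.97 ± 0.0476 and 1.89 ± 0.0242 FPKM (SD, n = 2). In sham 55.8% of the genes tested had a lower FPKM than Mest, and after PNX 81.9%. Dlk1 stayed last, at 0.158 ± 0.00310 FPKM (SD, n = 2) after PNX, above 5.89% of the genes tested.

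The place of Meg3 depended on the transcript. Its transcripts of 11472 and 11460 bases and the short one of 1913 bases had nearly the same counts, 1149, 1123 and 1158 in PNX replicate 1, so that the short one had 8.20 FPKM on average after PNX and the longest 1.40. With the highest transcript of each gene, Meg3 moved from the eighth to the third place after PNX. Counts of the 3 Mest transcripts lay between 3666 and 3763 in that library, and those of the Cdkn1c transcripts were both 974. Since a read was counted on each transcript that it overlapped, the tables do not tell these forms apart.

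**Figure D4:**
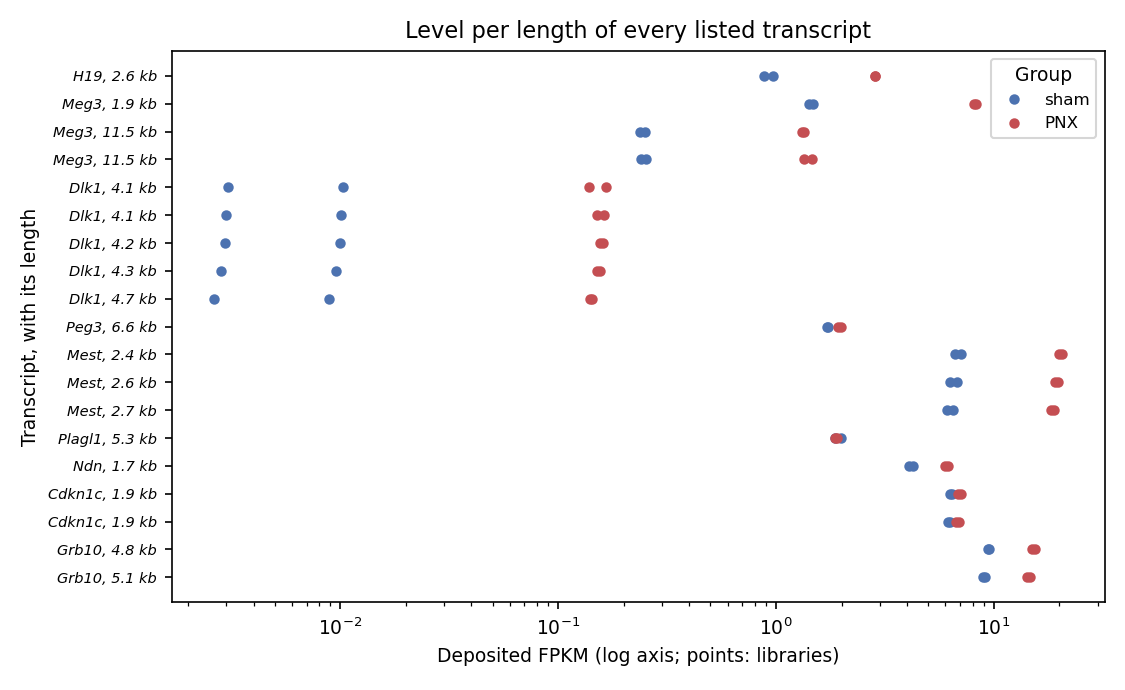
Deposited FPKM (log axis) of every listed transcript of the network genes in the sham (blue) and PNX (red) libraries, with the length that the deposited count and FPKM imply. The short Meg3 transcript lies above the long ones in both groups, and the transcripts of Dlk1, Mest, Cdkn1c and Grb10 lie close together.

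No neighbour of the members outside the Dlk1-Dio3 domain was called. Of the 32 genes listed in or beside the domains, 29 were in the tables and 21 were tested. The 2 that were higher by the 2-fold rule were Rian and Mirg, where 5.9% of all genes tested were higher and 1.66% lower. Mirg passed the filter on low counts only through the PNX libraries, so it had to be higher to be tested. The median log2 fold change of the 21 was -0.0071, beside 0.0012 over all genes tested. Among those with the most counts, Phactr2 beside Plagl1 fell by 0.39 on the log2 scale, from 11129 to 8507 normalized counts, and Cd81 rose by 0.26, from 9825 to 11760. Nap1l4, a histone chaperone gene, had 5598 normalized counts in sham and 5592 after PNX, a log2 change of -0.0022 (edgeR adjusted p 0.95).

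Imprinted genes of other chromosomal regions gave 3 higher by the 2-fold rule among 23 tested, with 0 lower and a median log2 fold change of 0.14. Over all genes tested that rule gave 5.9% higher and 1.66% lower. Dcn, a matrix proteoglycan of fibroblasts that is imprinted in the placenta, had 2866 and 2859 normalized counts in sham and 14188 and 14103 after PNX, a log2 change of 2.30 (edgeR adjusted p 3.7e-62). Gatm, the first enzyme of creatine synthesis, had 201 and 183 normalized counts in sham and 854 and 874 after PNX, a log2 change of 2.16. Calcr, the calcitonin receptor, rested on 10 counts in sham and 30 after PNX, passed the filter only through the PNX libraries, and lost its call in DESeq2's Wald test (adjusted p = 0.069). Among those with the most counts, Gnas rose by a log2 change of 0.18, while Peg13 fell by 0.43 on the log2 scale, both at an edgeR adjusted p under 0.01. Igf2r, the receptor that clears Igf2, had 4030 and 4097 normalized counts in sham and 5567 and 5431 after PNX, a log2 change of 0.44.

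Of 12 tested genes that place, keep or remove methylation at imprints, Uhrf1 was higher by the 2-fold rule and 0 were lower, beside 5.9% and 1.66% of all genes tested. Uhrf1, which brings the maintenance methyltransferase to newly copied DNA, had 317 and 323 normalized counts in sham and 2166 and 2123 after PNX, a log2 change of 2.74 (edgeR adjusted p 1.6e-47). Dnmt1, that methyltransferase, rose by 0.53 on the log2 scale, while the demethylase Tet3 fell by 0.33. Of the genes whose proteins bind imprinted control regions, Zfp445 and Ctcf fell by 0.25 and 0.16 on the log2 scale. Zfp57, another of these, rose by 0.21 (edgeR adjusted p 1.0e-04). Scaling to the 12 endothelial markers moved the median of all genes by 0.24, more than the fall of Ctcf. Trim28, the corepressor that zinc finger proteins bring to imprints, had 5262 and 5231 normalized counts in sham and 6413 and 6195 after PNX. DNA methylation itself was not measured.

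Of 15 proteins that the members bind or act on, 4 were higher by the 2-fold rule and 0 lower, beside 5.9% and 1.66% of all genes tested. They were the cyclins Ccna2, Ccne1 and Ccne2, which drive the kinases that Cdkn1c inhibits, and E2f1, the partner of necdin. Ccna2 had 676 and 664 normalized counts in sham and 4188 and 4252 after PNX, a log2 change of 2.65. Ccnd1, the cyclin of early division, rose by 0.58 on the log2 scale, from 13646 to 20425 normalized counts. Ccne1, Ccne2 and E2f1 rose by log2 changes of 2.29, 1.17 and 1.40. Among the receptors, Kdr and Notch1 fell by 0.40 and 0.32 on the log2 scale, and Insr and Igf1r, on which Grb10 acts, fell by 0.19 and 0.35. Kdr is also among the 12 endothelial markers. Scaling libraries to those markers moved the median of all genes by 0.24, more than the fall of Insr. Notch4 had a log2 change of -0.0081 (edgeR adjusted p 0.73).

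Markers of other cells moved between the groups as well. By the 2-fold rule 5.9% of all genes tested were higher and 1.66% lower. Summed over a list, the 12 endothelial markers had 506437 to 511443 normalized counts in sham and 430819 to 432657 after PNX. The most counted of them, Cdh5 and Pecam1, had mean normalized counts of 110259 and 90946 in sham, so the labelled cell type was present. The epithelial genes Sftpc and Scgb1a1 had sham means of 171015 and 145756, and the other genes of that list between 1105 and 46260. The fraction thus also held RNA of other cells. Its share was not measured, since counts of different genes are not levels per length. Values given here for ECs are those of this mixed fraction. The 8 fibroblast markers went from between 79209 and 79852 in sham to between 266094 and 269198 after PNX, with 5 of 8 higher by the 2-fold rule, Col3a1 and Col1a2 among them. Of the same list, Pdgfra, a receptor of resident fibroblasts, fell by 0.23 on the log2 scale (edgeR adjusted p 2.4e-15), and Tcf21 had a log2 change of 0.016 (edgeR adjusted p 0.68). Scaling libraries to the 12 endothelial markers moved the median of all genes by 0.24, more than the fall of Pdgfra. Mesothelial markers went from at most 9868 to at least 22358, with 5 of 7 higher, and macrophage markers from at most 22337 to at least 51714, with 4 of 7 higher. Smooth muscle and pericyte markers went from at most 20951 to at least 27602, with 1 of 7 higher. Markers of dividing cells, led by Mki67 and Top2a, went from at most 2862 to at least 23670, with 6 of 6 higher. Epithelial markers fell from at least 404439 to at most 245932, with Scgb1a1 as the 1 of 6 lower, and the 4 pan-leukocyte markers had 35900 to 36010 in sham and 37725 to 38147 after PNX. Adipocyte markers went from at most 1074 to at least 2928, with 4 of 4 tested higher and Lep at 0 in sham. Most of this sum was Fabp4, with means of 1058 in sham and 2414 after PNX. Of the 4 tested, Adipoq, Plin1 and Cfd passed the filter only through the PNX libraries, so their direction was fixed by it. No other defining marker of these lists was at 0 in every library of a group. In bulk RNA more cells of a type and more RNA per cell cannot be told apart, and the part of these lists in the rise of Dlk1, Meg3, H19 and Mest was not tested.

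**Figure D5:**
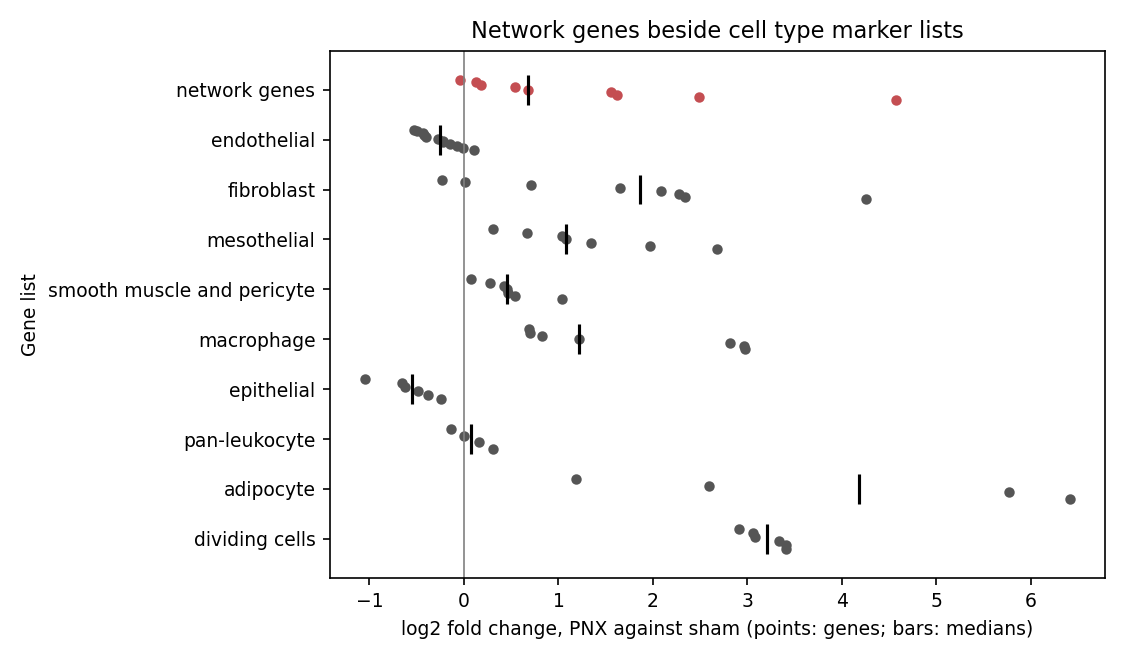
Log2 fold change between PNX and sham of the 9 network genes (red) and of the genes in each marker list (grey), with bars at the medians. The median of the network genes was 0.67, that of the fibroblast list 1.86, that of the dividing cell list 3.21 and that of the endothelial list -0.25.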

How the data were processed

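ECs of 2 sham and 2 PNX libraries were compared, grouped by the sample titles. The authors aligned reads to mm10 (STAR in the submitters' processing notes, version not given in the sources used here) after a stranded, paired-end mRNA preparation, and deposited raw counts for each of 33068 RefSeq transcripts. A read on several transcripts was counted for each. The authors also deposited FPKM and TPM values, per length and per library total over all transcripts, which were used only for levels.

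For each symbol the transcript with the most counts was taken. Tests were run with edgeR 4.0.16 under R 4.3.3 (filterByExpr, 16208 genes, TMM factors between 0.9985 and 1.0026, quasi-likelihood test without covariates, Benjamini-Hochberg adjustment), and genes were called by the study's thresholds, more than 2-fold and 0.01 for the adjusted p. The standard error is the log2 fold change over the square root of F. Alternatives were other scalings, filters, DESeq2 1.42.0, glmTreat, a replicate block, transcripts summed per gene and omission of each library. The steps were tested on simulated data.

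The members and lists were chosen with earlier results of these data known. Named were all members, from the other lists every gene called and the 3 with the most counts, and of each marker list up to 2. Others were chosen after their values were seen. They are the domain neighbours beside a member and Igf2r, Dnmt1, Tet3, Zfp57, Notch1, Insr, Igf1r, Pdgfra, Tcf21, Adipoq, Plin1 and Lep. For each called member, the 3 genes most alike over the 4 libraries were taken among genes with at least 100 normalized counts.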

Additional observations from a re-analysis of the deposited data

How the results depend on the processing

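Dlk1, Meg3, H19 and Mest kept their calls under every scaling, filter, test and left-out library in which they were tested. Dlk1 passed the filter of the main fit only through the PNX libraries, so its direction there was fixed in advance. With a mean of at least 50 counts Dlk1 and Mirg were not tested, since fewer genes enter, and 1 domain neighbour was called. Scaling to endothelial markers called 5 imprinted genes elsewhere in place of 3 and left 91 genes lower (1285 higher, 93.4% of calls against 78.1%). Without a fold threshold 7 members were higher, domain neighbours gave 6 higher and 5 lower, imprinted genes elsewhere 9 and 5, methylation genes 5 and 4, partners 8 and 6, and all genes 4745 and 4513. Over all genes 957 were higher and 269 lower, glmTreat left 604 and 39, and the filter of 50 counts left 160 lower. DESeq2's Wald test called 835 higher and 190 lower. Plagl1 changed sign under endothelial scaling (0.20, edgeR adjusted p 0.0035) and, on omitting single libraries, ranged from -0.079 to 0.0033. Under endothelial scaling Cdkn1c rose by 0.36 on the log2 scale (edgeR adjusted p 2.7e-07). Mirg ranged from 2.87 without sham replicate 2 to 4.89 without sham replicate 1. Calcr lost its call under DESeq2's Wald test and glmTreat and without sham replicate 1 (1.91), sham replicate 2 (1.51) or PNX replicate 2 (1.39), and Ccne2 under glmTreat. Taking the highest transcript of each gene kept the places of 3 of the 9 members. Except for the scalings, filters and omissions named, the cause of these changes was not tested.

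The replicate number marks no shared mice, and same-numbered libraries did not deviate together (r = 0.024 over 13402 genes). With the replicate block 957 genes were higher and 272 lower, 4 of them members. Depth limits Dlk1, Mirg, Rtl1 and Dio3, whose sham libraries held 5 counts or fewer.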

Other observations

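The profile of each called member over the 4 libraries was set beside those of 13402 genes, as the Euclidean distance of log2 normalized counts centred on each gene's mean. The genes nearest to H19 were Gli1 (distance 0.040), the transcription factor of hedgehog signaling, Plk4 (0.049), which builds centrioles, and Hmgb2 (0.052), a chromatin protein of dividing cells. Gli1 went from 150 to 463 normalized counts. Those nearest to Mest were Plk4 (0.040), Smc2 (0.044), a condensin subunit, and Mcm2 (0.048), a subunit of the replicative helicase. Those nearest to Meg3 were the mitotic kinesin Kif15 (0.069), the microglia and macrophage receptor Trem2 (0.076) and E2f7 (0.080). The gene nearest to Dlk1, Ccl8, a chemokine, stood at a distance of 0.62. Dlk1 itself had fewer counts than the genes searched, and its sham libraries had an SD of 1.15 on the log2 scale. A large distance to well counted genes was therefore fixed by its depth. For H19, Mest and Meg3, with 2 groups of 2 libraries, the distance reflects mainly the size of the difference between groups. These distances are a description with no test.

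A further RNA, miR-1906, is annotated inside Meg3 and also on the X chromosome. Both entries had the same counts, 19 and 13 in sham and 89 and 77 after PNX, so the reads cannot be assigned to either.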
